A study of Homo sapiens with 4 samples.

Results

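Protease inhibitors of the cystatin, Kazal, Kunitz, WAP and clade B serpin families were followed in Huh-7 cells, a human hepatocellular carcinoma line, with and without transforming growth factor beta (TGF-beta). The group was assembled around CSTA because CSTA fell after TGF-beta, so its members were taken by probe set symbol with this contrast already known. Of 10 listed genes, 9 were measured, by 10 of the 22215 probe sets, against 12165 genes measured in all: CSTA, CSTB, CST3, SPINK1, SPINT1, SPINT2, SLPI, SERPINB1 and SERPINB8. SERPINB6 has no probe set among those used and was not analysed here. SLPI carries WAP domains and is neither a Kunitz nor a Kazal inhibitor, so the group is wider than those 2 families.

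The study hybridised total RNA of this single line to 4 Affymetrix human expression arrays. Untreated cells gave 2 of these, and cells collected 48 h after addition of TGF-beta gave the other 2. The medium of every culture, treated or not, held 10% heat-inactivated bovine serum, and RNA came from confluent 10 cm dishes. The dose and form of TGF-beta are not stated in the sources read here. Arrays 1 and 2 of a group are not said to be separate cultures, so errors and p-values here cover array-to-array spread alone, perhaps technical only.

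Protease inhibitors occupy the active site of their target enzyme. Type 1 cystatins (CSTA, CSTB) stay inside the cell and the secreted cystatin CST3 acts outside it, and all bind papain-like cysteine proteases such as the lysosomal cathepsins. Kazal (SPINK1), Kunitz (SPINT1, SPINT2) and WAP (SLPI) inhibitors are secreted or sit at the cell surface and block serine proteases by a loop that resembles a substrate. Clade B serpins are mostly intracellular and trap serine proteases by an irreversible change of shape. In the liver, SPINK1 is known as a product of hepatocellular carcinoma, and SPINT1 and SPINT2 as inhibitors of the proteases that activate hepatocyte growth factor.

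Intensities are the deposited linear probe set values, and differences are in log2, TGF-beta minus untreated. A gene was called when its adjusted p in limma over all 12165 genes was under 0.05. By this rule 149 genes, 1.22%, were called (0.567% lower and 0.658% higher with TGF-beta). Of the 9 inhibitors, 1 was called lower (CSTA), 0 higher and 8 were not called. The TGF-beta arrays lay wholly above both untreated arrays in 5 inhibitors (CSTB, CST3, SPINK1, SPINT1, SERPINB8) and wholly below in 2 (CSTA, SERPINB1). Of all genes 49.1% separated in this way, 23.3% higher and 25.9% lower. The median difference was 0.20 over the 9 inhibitors and -0.01 over all genes. Because the contrast chose the group, these counts, medians and all member values that follow are a description without a test.

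CSTA (cystatin A, an inhibitor of cathepsins that is also built into the cornified envelope of skin cells) fell 2.98-fold. Its intensities were 579 and 560.0 on the untreated arrays and 178 and 205 on the TGF-beta arrays, so both treated arrays were far below both untreated ones. The log2 level went from 9.15 ± 0.03 to 7.58 ± 0.14 (SD, n = 2 each), a difference of -1.57 ± 0.12 (SE), which left 33.6% of the untreated level. Between single arrays of different groups the difference lay between -1.70 and -1.45. In bulk RNA, fewer cells that express CSTA and less CSTA RNA per cell cannot be told apart. Only 0.0411% of all genes had a larger difference in either direction. Leaving out TGF-beta array 1 gave -1.47 and leaving out TGF-beta array 2 gave -1.68, and CSTA was then not called, as 0 genes were called in either of these fits (limma, with 1326 and 1563 genes past an unadjusted p of 0.05).

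The other cystatins of the group had values of the opposite sign. CSTB (cystatin B, the ubiquitous cytosolic type 1 cystatin) gave 1927 and 1815 on the untreated arrays and 2114 and 2197 on the TGF-beta arrays. The treated arrays were both higher, by a log2 difference of 0.20 ± 0.11 (SE), or 1.15-fold, which was not called. CST3 (cystatin C, the main secreted cystatin) gave 606 and 537 untreated and 735 and 737 with TGF-beta. Here too both treated arrays lay above, with 0.37 ± 0.11 (SE), 1.29-fold, not called. The contrast of CSTA with CSTB and CST3 was not tested, since the group was chosen on these values.

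**Figure D1:**
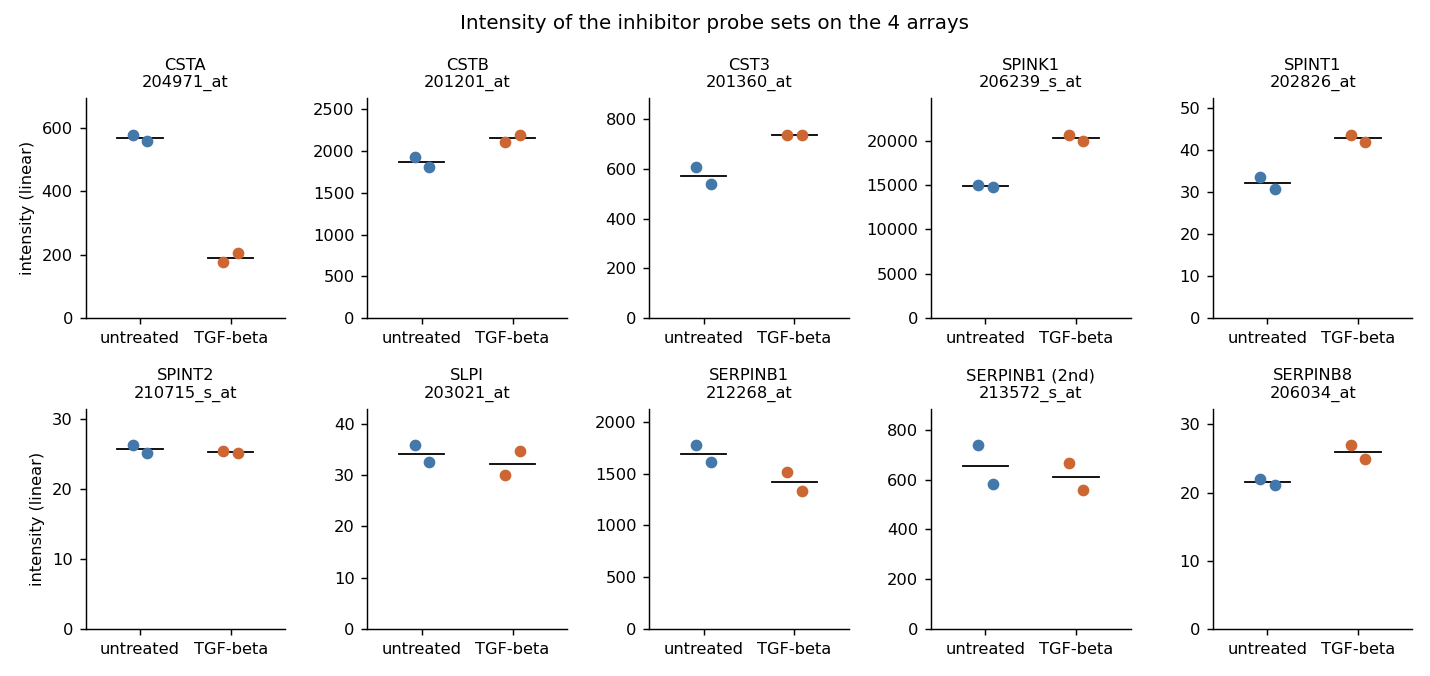
Linear intensity (vertical axes, each from 0) of the 10 inhibitor probe sets on the 2 untreated (blue) and 2 TGF-beta arrays (orange), 1 point per array, with the geometric mean of each group as a black line. CSTA drops from 579 and 560.0 to 178 and 205, SPINK1 goes from 14963 and 14763 to 20673 and 20012, and the SPINT2, SLPI and second SERPINB1 probe sets overlap between groups.

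The other cystatins listed here gave little signal. This list leaves out AHSG, which was counted with the hepatocyte markers. AHSG read 2192 and 2007 untreated and 2002 and 2000 with TGF-beta. Of 12 listed, 9 were measured, 8 of them under the lower quartile of gene intensities (31.8), where there is little room to fall. Of these 9, 0 were called by limma (0 at an unadjusted p under 0.05), and differences lay between -0.12 and 0.09. The smallest p was that of CST6 (cystatin M/E, an epidermal cystatin), with -0.12 ± 0.11 (SE, limma adjusted p = 0.604).

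The proteases that cystatins inhibit had 0 calls among 12 cysteine cathepsins and legumain, and a median difference of 0.05. Without adjustment, 1 was higher and 3 were lower at p under 0.05 (limma), where 18% of all genes passed in either direction. CTSH (cathepsin H, a lysosomal aminopeptidase) had the smallest p. It read 865 and 931 untreated and 1333 and 1164 with TGF-beta, a difference of 0.47 ± 0.12 (SE, limma adjusted p = 0.0950). CTSB (cathepsin B, an abundant lysosomal protease) stood at 0.27 ± 0.13 (adjusted p = 0.332), and its other 3 probe sets gave 0.33, 0.33 and 0.09. Without TGF-beta array 1 CTSB was at 0.13, and without TGF-beta array 2 at 0.41. CTSL (cathepsin L, a lysosomal endopeptidase) had 732 and 684 against 613 and 512, a difference of -0.34 ± 0.13 (adjusted p = 0.221), or -0.21 without TGF-beta array 2. Its close relative CTSV, named after its values were seen, had 549 and 662 against 461 and 405, a difference of -0.48 ± 0.13 (adjusted p = 0.118). None of these 4 cathepsins passed the threshold. The arrays of CTSB, CTSH, CTSL and CTSV each separated by group, as did those of 7 of the 12 listed genes and 49.1% of all genes.

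SPINK1 (the Kazal-type secretory trypsin inhibitor first known from pancreas) had the largest positive difference of the group. The untreated arrays read 14963 and 14763 and the TGF-beta arrays 20673 and 20012. The replicates of each group lay close together, and both treated arrays were above both untreated ones. The log2 level went from 13.86 ± 0.01 to 14.31 ± 0.03 (SD, n = 2 each), a difference of 0.45 ± 0.10 (SE), or 1.37-fold, which was not called. Of all genes, 7.09% had a larger difference in either direction. The pairwise differences between arrays of different groups ran from 0.42 to 0.49. Array intensities reached 37821 to 39036 at most, so SPINK1 lay in the upper range, where differences can be compressed. With an intensity trend and robust moderation of the variances SPINK1 was called.

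RefSeq (GRCh38.p14) promoter entries were at hand for 5 of the 9 measured inhibitors, CST3, SPINK1, SPINT1, SERPINB1 and SERPINB8, and for SERPINB6. The 250 bases before each listed start were searched on both strands for 4 motifs, with the share of all 35116 entries that hold each. These were the SMAD core AGAC (77.5%), the AP-1 site TGANTCA (6.6%), the STAT site TTCNNNGAA (6.6%) and the TATA box TATAAA (10.7%). The STAT letters were found before SPINK1, SERPINB1 and SERPINB8, once each, and the windows of these 3 genes are printed for that reason, 5′ to 3′ on the gene's strand. Matches to any of the 4 motifs are in capitals. The SPINK1 window (chr5:147831672-147831921, minus strand) holds 1 match, TTCCCAGAA, from 91 to 83 bases before the start, and no SMAD core.
SPINK1: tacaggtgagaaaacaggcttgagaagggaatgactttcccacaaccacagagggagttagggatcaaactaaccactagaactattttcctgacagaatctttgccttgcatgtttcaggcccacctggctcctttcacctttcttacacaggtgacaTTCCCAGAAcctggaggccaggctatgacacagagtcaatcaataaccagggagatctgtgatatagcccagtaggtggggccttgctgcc
The SERPINB1 window (chr6:2841864-2842113, minus strand) holds 1 match, TTCGGGGAA, from 208 to 200 bases before the start, and no SMAD core.
SERPINB1: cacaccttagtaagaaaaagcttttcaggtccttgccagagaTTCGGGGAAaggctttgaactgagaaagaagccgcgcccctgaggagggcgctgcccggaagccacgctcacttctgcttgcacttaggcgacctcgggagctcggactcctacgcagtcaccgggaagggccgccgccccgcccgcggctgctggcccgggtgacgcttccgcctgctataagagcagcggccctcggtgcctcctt
The SERPINB8 window (chr18:63969831-63970080, plus strand) holds 1 STAT, 2 AP-1, 2 SMAD and 2 TATA matches, the last pair overlapping each other on opposite strands.
SERPINB8: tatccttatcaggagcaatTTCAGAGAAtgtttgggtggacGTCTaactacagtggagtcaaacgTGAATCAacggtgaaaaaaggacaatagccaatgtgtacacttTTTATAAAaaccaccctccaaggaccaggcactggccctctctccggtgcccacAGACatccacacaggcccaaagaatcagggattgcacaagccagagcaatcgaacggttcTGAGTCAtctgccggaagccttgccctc
The 3 genes with the STAT letters did not share a direction, since SPINK1 and SERPINB8 lay higher on the TGF-beta arrays and SERPINB1 lower. CST3 held 1 SMAD core in its window, and the 2 listed starts of SPINT1 held 0 and 4. A match describes these letters only, and no binding was measured.

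SPINT1 (hepatocyte growth factor activator inhibitor type 1, a Kunitz inhibitor of the epithelial cell surface) was dim and lay higher on both treated arrays. It read 33.6 and 30.8 untreated and 43.7 and 42.0 with TGF-beta, a difference of 0.41 ± 0.11 (SE), or 1.33-fold, not called. With an offset of 16 added before the log the difference was 0.29. SPINT2 (hepatocyte growth factor activator inhibitor type 2, its close relative) had 26.2 and 25.1 against 25.3 and 25.1, a difference of -0.02 ± 0.10. Its arrays overlapped, and all 4 lay under the lower quartile of gene intensities, where a decrease could not be seen. SLPI (secretory leukocyte protease inhibitor, which blocks neutrophil elastase) had 35.84 and 32.66 against 30.01 and 34.66. The groups overlapped, with -0.09 ± 0.12 (SE).

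**Figure D2:**
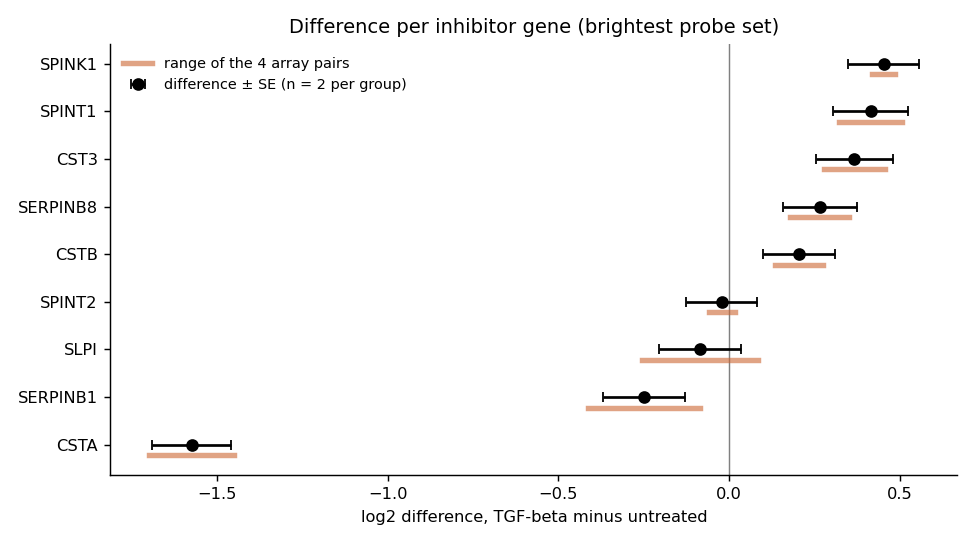
Log2 difference, TGF-beta minus untreated, of the 9 inhibitor genes (black point, SE as bar, n = 2 arrays per group), with the range over the 4 pairs of arrays of different groups in orange. CSTA stands alone at -1.57, SPINK1, SPINT1, CST3, SERPINB8 and CSTB lie between 0.20 and 0.45, and only SPINT2 and SLPI have a range that crosses 0.

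Other Kunitz, Kazal and WAP inhibitors had 0 calls among 15 measured by limma, and the median difference was 0.02. Before adjustment 1 was under 0.05, the lower TFPI (tissue factor pathway inhibitor, the Kunitz inhibitor that restrains the start of coagulation). Its brightest probe set read 1745 and 1679 untreated and 1379 and 1060.0 with TGF-beta, a difference of -0.50 ± 0.14 (SE, limma adjusted p = 0.124), or -0.31 without TGF-beta array 2. All 5 probe sets of TFPI had treated arrays below both untreated arrays, and the other 4 gave -0.38 ± 0.10, -0.56 ± 0.14, -0.86 ± 0.16 and -0.86 ± 0.13 (SE). In a fit over all 19724 probe sets that name 1 gene, where 0.887% were called, the dimmest of the 5 passed with an adjusted p of 0.0464 and the others did not. The mean of the 5 gave -0.63 with an adjusted p of 0.0538 in limma. APP (amyloid precursor protein, which has a Kunitz domain in some isoforms) was chosen after its values were seen and stood at 0.22 ± 0.11 (adjusted p = 0.341).

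Serine proteases that these inhibitors can hold had 0 calls among 19 measured by limma, and the median difference was -0.01. Before adjustment 1 was under 0.05, the higher FURIN (the proprotein convertase of the Golgi, a reported target of SERPINB8), at 99.9 and 108 untreated and 137 and 145 with TGF-beta. Its difference was 0.44 ± 0.11 (SE, adjusted p = 0.0941). HPN (hepsin, a surface protease of hepatocytes held by SPINT1 and SPINT2) had 118 and 71.9 against 146 and 99.2, so its groups overlapped, with 0.39 ± 0.26 (adjusted p = 0.491). The value of HPN rested on single arrays, since leaving out untreated array 2 gave 0.028 and leaving out untreated array 1 gave 0.74, while omitting a TGF-beta array gave 0.11 (array 1) or 0.66 (array 2). ST14 (matriptase, the epithelial protease that SPINT1 controls) was under the lower quartile, at -0.01 ± 0.11, and its sign turned when its 3 probe sets were averaged (0.09). Of the growth factors that these proteases activate and their receptors, 0 of 4 were called by limma (0 at an unadjusted p under 0.05). MET (the receptor of hepatocyte growth factor) was at 1118 and 1188 against 1143 and 1292, a difference of 0.08 ± 0.11 (adjusted p = 0.794). Other MET probe sets differed in sign, at -0.22 (both treated arrays lower), 0.002 and 0.22. HGF itself stood at -0.06 ± 0.11 and MST1, with the smallest p of the 4, at -0.37 ± 0.27 (adjusted p = 0.533).

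Of the clade B serpins, SERPINB1 (leukocyte elastase inhibitor, an intracellular inhibitor of neutrophil proteases) lay lower on both treated arrays. Its brightest probe set read 1775 and 1612 untreated and 1519.7 and 1333 with TGF-beta, a difference of -0.25 ± 0.12 (SE), 1.19-fold lower, not called, and -0.15 without TGF-beta array 2. The second probe set, at 738 and 581 against 666 and 559, overlapped between groups and gave -0.10 ± 0.15. SERPINB8 (an intracellular serpin that can inhibit furin) was under the lower quartile on all 4 arrays. It had 22.04 and 21.09 against 26.93 and 24.95, with both treated arrays higher and a difference of 0.27 ± 0.11, not called. With an offset of 16 this became 0.16. Of 7 other clade B serpins measured, 0 were called by limma (0 at an unadjusted p under 0.05), with differences of -0.06 to 0.11. Only SERPINB9 (the granzyme B inhibitor, named after its values were seen) was clearly bright, with 461 and 422 against 483 and 407 and a difference of 0.01 ± 0.13. SERPINB4, with the smallest p of these, stood at 0.11 ± 0.12 (adjusted p = 0.704).

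**Figure D3:**
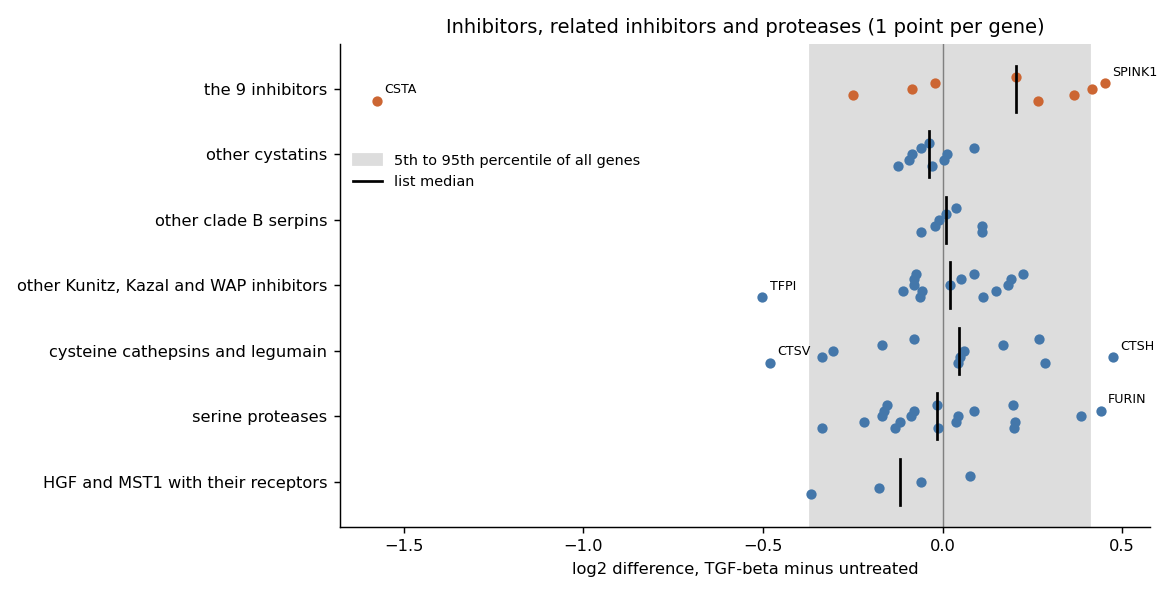
Log2 difference, TGF-beta minus untreated, of each gene (1 point) in the inhibitor group (orange) and in 6 lists of related inhibitors and proteases (blue), with list medians as black lines and the 5th to 95th percentile of all genes (-0.37 to 0.41) in grey. CSTA at -1.57 lies far outside the grey band, and TFPI, CTSV, CTSH, FURIN, SPINK1 and, narrowly, SPINT1 lie just beyond it.

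Over all 6 lists of related inhibitors and proteases, 66 genes were measured, 0 were called by limma and 6 passed an unadjusted p under 0.05, where 18% of all genes did so. The 2 sets differ in brightness, since 25% of all genes lie under the lower quartile. There lay 8 of 9 other cystatins, 4 of 7 other clade B serpins and 9 of 19 serine proteases. So did 9 of 15 other Kunitz, Kazal and WAP inhibitors. Of the cathepsins and legumain it was 1 of 12, and of the growth factors and receptors 0 of 4.

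Markers of cells in which these inhibitors are prominent were read beside them. Hepatocyte markers were mostly bright, led by ALB (33581 to 35745, albumin) and AFP (23914 to 25420, alpha-fetoprotein). Of the 12 genes measured from this list, 1 was under the lower quartile (TAT) and CYP2E1, at 31.8 to 35.7, lay just above it. Summed intensities of that list were 94772 and 96981 untreated against 102216 and 100907 with TGF-beta. APOA1 and TTR, carriers of lipid and of thyroid hormone, were its 2 called members, at 0.74 and -0.63. Of 15 squamous epithelium and cornified envelope genes, 8 were under the lower quartile, and sums were 1392 and 1402 against 1604 and 1575. KRT14 and FLG were under the lower quartile. LORICRIN, TGM1, SPRR1A, EVPL and DSG3 were not under it by their means, though dim, at 29.8 to 49.6 on single arrays. KRT10 was the brightest of the list, at 0.15 ± 0.10. Other KRT10 probe sets gave -0.08 and 0.02, with overlapping groups. PPL (periplakin, like CSTA a component of the cornified envelope) rose 2.02-fold, from 81.5 and 90.4 to 176 and 171 (limma adjusted p = 0.0168), the direction opposite to that of CSTA. KRT10 made up most of the squamous sums, and KRT10 with PPL most of their rise. Of 11 neutrophil and monocyte genes, 9 were under the lower quartile, S100A8 and PTPRC among them, with sums of 366 and 364 against 422 and 437. CD14, a lipopolysaccharide co-receptor that hepatocytes also make, rose from 75.6 and 75.4 to 146 and 157 (limma adjusted p = 0.0167). The rise of the sums of this list was that of CD14, and without CD14 they did not rise. FCN1 was near the quartile at -0.04. Of 8 pancreatic acinar genes, 7 were under the lower quartile, including PNLIP and PRSS1, with sums of 223 to 229, CPB1 being the exception and CELA3A the next. Fibroblast genes summed to 7006 to 7574, nearly all of it LUM (6692 to 7292). COL1A2, the next brightest, had overlapping groups at -0.11 ± 0.15 (SE). Of the 9 fibroblast genes measured, 1 had a positive difference and 0 were called. COL1A1 (-0.44 ± 0.11) and DCN (-0.53 ± 0.15), both dim (34.1 to 60.6), were lower at an unadjusted p under 0.05 (limma). Other COL1A1 probe sets gave -0.15, 0.16 and 0.12, and other DCN probe sets -0.19, -0.003 and -0.04. Like every gene, PPL, CD14, APOA1 and TTR were not called when either TGF-beta array was left out. The part of these markers in the values of CSTA was not tested.

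The genes whose profile over the 4 arrays lay nearest to that of CSTA, by Euclidean distance of log2 values centred per gene, were NUPR1 (a stress-induced nuclear protein, distance 0.29), TTN (titin, 0.33), ASNS (asparagine synthetase, 0.39), ODAM (an odontogenic and epithelial secreted protein, 0.44) and CCPG1 (an endoplasmic reticulum autophagy receptor, 0.45). NUPR1 went from 1621 and 1429.6 to 597 and 614, and ASNS from 5216 and 4882 to 2149 and 2265. Over 4 arrays in 2 groups this measure is set mainly by the size of the fall. No other inhibitor could be among them, since the lowest of the others, SERPINB1, stood at only -0.25.

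**Figure D4:**
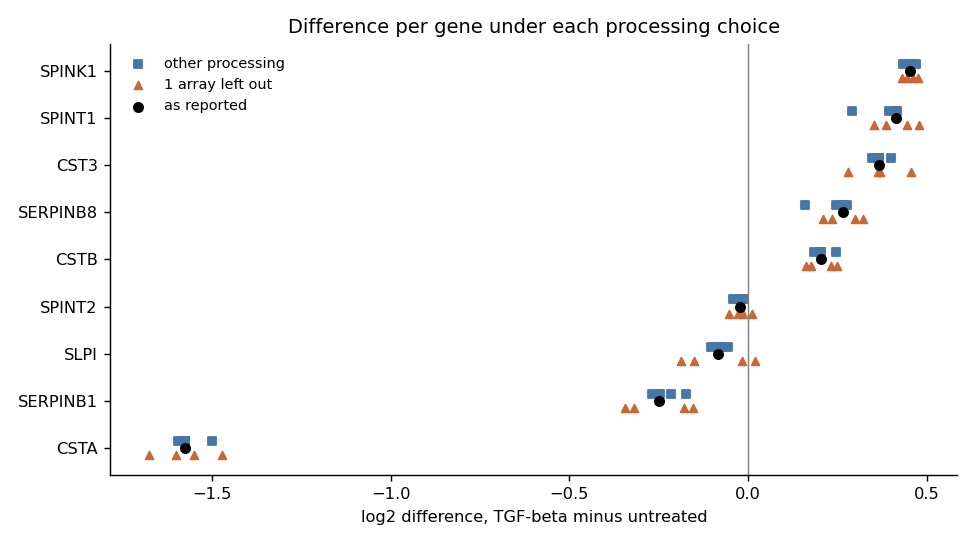
Log2 difference, TGF-beta minus untreated, of each inhibitor gene as reported (black), under other processing choices (blue squares) and with 1 array left out (orange triangles). CSTA stays between -1.68 and -1.47, SPINK1 between 0.43 and 0.48, and SPINT2 and SLPI have values on both sides of 0 when 1 array is left out.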

How the data were processed

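Total RNA of Huh-7 cells was measured on 4 arrays, and each sample's group came from its title. The authors deposited linear intensities, already summarised to probe sets. Per the submitters' processing notes the affy package was used, while its settings and the genome build are not stated there. Quartiles were nearly equal between arrays (medians 50.1 to 51.0), so no scaling was added. Arrays have no read depth, and their number limits the precision.

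Intensities were taken to log2 without offset. Symbols came from the platform annotation, updated by Entrez number through RefSeq (GRCh38.p14, names only), found for 19707 of the 19724 probe sets that name 1 gene. Those with several (568) or no (1923) gene names were not used. Each gene was read from its brightest probe set. TGF-beta was compared with untreated cells by limma 3.58.1 (R 4.3.3) with lmFit, eBayes and Benjamini-Hochberg adjustment over 12165 genes, with 7.41 degrees of freedom. Data were simulated for 12165 genes, 200 of them changed, with independent errors from the variances that limma itself had fitted. This recovered 8.87% of log2 changes of 0.5, 91.6% of 1 and 98.7% of 1.5, and 5.09% of the calls were false. Because the simulation shares the assumptions of the fit, it cannot show how the fit performs on the real arrays.

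Members, lists and motifs were chosen with earlier results of these data known. Named genes were all members, called genes or the smallest p of each related list, 6 targets and ligands (CTSB, CTSL, ST14, HPN, HGF, MET), the 2 brightest of each marker list and the 5 genes nearest to CSTA. Other markers (AHSG, APOA1, TTR, TAT, CYP2E1, KRT14, FLG, LORICRIN, TGM1, SPRR1A, EVPL, DSG3, S100A8, PTPRC, PNLIP, PRSS1, COL1A1, DCN) were picked after their values were seen. Alternatives covered normalization, offset, dim genes, probe sets, moderation, the replicate block and each array left out. No scanner files or dates were used here. Plots used matplotlib 3.10.9.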

Additional observations from a re-analysis of the deposited data

How the results depend on the processing

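The alternatives gave all 9 inhibitors the direction reported except SPINT2 and SLPI with 1 array left out, where SPINT2 ran from -0.053 to 0.010 and SLPI from -0.19 to 0.019. Without 1 array, CSTA ran from -1.68 to -1.47, and the inhibitors called numbered 0 to 1, by gene or by probe set. Over all genes the calls numbered 345 and 523 without untreated array 1 or 2, 0 without either TGF-beta array, 63 after quantile normalization, 89 with dim genes left out and 632 with an intensity trend and robust moderation, against 149. The cause was not tested. The trend setting called 2 inhibitors and 2 probe sets, adding SPINK1, and 2 genes of the related lists (TFPI and CTSH). Whether arrays with the same replicate number were handled together is not stated. The replicates' deviations were uncorrelated between groups (r = -0.01 over probe sets), which with 1 pair per group cannot settle it. With the replicate number as a block, 1229 genes, 3 inhibitors (CSTA, SPINK1, SPINT1), 2 inhibitor probe sets and 4 genes of the related lists were called. ST14 turned to 0.092 with the mean of its probe sets. With 1 array left out, ST14 ran from -0.059 to 0.031, MET from -0.013 to 0.16, SERPINB4 from -0.0091 to 0.23, MST1 from -0.75 to 0.021, HGF from -0.12 to -0.0027, HPN from 0.028 to 0.74, CTSB from 0.13 to 0.41, CTSL from -0.47 to -0.21, TFPI from -0.69 to -0.31 and SERPINB1 from -0.34 to -0.15. Dim genes (SPINT2, SERPINB8 and nearly SPINT1 and SLPI) have little room to fall, which limits what a small difference there can show, and the filter on dim genes removed SPINT2 and SERPINB8.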
